A study of Mus musculus with 2 samples.

Results

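The Mir297, Mir466, Mir467 and Mir669 genes of the mouse were described here, 81 of the 2202 microRNA genes counted in hippocampus. They were chosen by name alone in GENCODE M21, each being one of those 4 names followed by nothing, a letter or a hyphen with a number. By position, 71 of the 81 lay inside Sfmbt2 on chromosome 2 (mm10, chr2:10370510-10595253, plus strand) and 10 lay elsewhere. The tissue was labelled as a layer of the hippocampus, with no layer named, from wild-type B6NCrl females described as controls. Both libraries of RNA below 30 nt, biological replicates 1 and 2, belong to that single group. No treatment is named and no age is given in the label fields. The sex is given only by the word Female in their description. Their labels share a donor record and do not say whether 2 animals were used, so the spread between them may be technical. Adapter trimming followed a different document for each library, and this cannot be told apart from the biosample.

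MicroRNAs are cut as hairpins from longer transcripts, and the mature strand guides repression of messenger RNAs through its seed, the bases near its 5′ end. Sfmbt2 encodes a Polycomb-group protein, and in the mouse it is imprinted and expressed from the paternal chromosome in extraembryonic tissue. One of its introns carries a long array of related hairpins that has been described in rodents, and its microRNAs are known from embryonic stem cells and placenta. Whether the family is restricted to rodents is not something these counts measure.

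The sequences of members outside Sfmbt2 show the base composition of the family. RefSeq (GRCm38.p6) had an entry under the symbol of 9 of the 81 members, and a mature sequence for 8 of them. They are written 5′ to 3′ with the seed, bases 2 to 8, in capitals. Mir466q comes first because it was the only member outside Sfmbt2 with counts, and the other 7 are of members with 0 counts in both libraries.

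mmu-miR-466q: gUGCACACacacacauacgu
mmu-miR-466i-3p: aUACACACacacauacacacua
mmu-miR-466j: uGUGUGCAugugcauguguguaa
mmu-miR-466k: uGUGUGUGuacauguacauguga
mmu-miR-467f: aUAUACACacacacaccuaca
mmu-miR-467g: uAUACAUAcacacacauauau
mmu-miR-467h: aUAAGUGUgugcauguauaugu
mmu-miR-669n: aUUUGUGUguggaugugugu

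All 8 are runs in which a purine and a pyrimidine mostly alternate, and their 8 seeds are all different. On mm10, mmu-miR-466q lies at chr3:28419988-28420007 (plus strand), within the intron of Tnik that holds its gene. Within annotated hairpins on either strand, 7 of these sequences occurred in 1 hairpin, their own. The exception, mmu-miR-467h, occurred in 3, with Gm25510 and Gm26303. For Mir297, the RefSeq entry was the hairpin of Mir297-1 (chr7:10958437-10958512, minus strand), and it too is made largely of such alternating bases.

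Mir297-1 hairpin: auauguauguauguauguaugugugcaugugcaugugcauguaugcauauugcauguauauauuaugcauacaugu

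A like composition was seen in the medians over the 81 hairpins of the annotation, though members varied. The median share of adjacent bases that were T with G, C with A or T with A, in either order, was 76.7% in members and 34.7% in the 2121 other microRNA hairpins. Members ran from 57.1% in Mir669k to 94.1% in Mir467g. The median GC content was 36.5% in members and 51.4% in the others. Among those others, the 48 that lie inside Sfmbt2 had medians of 62.2% for such pairs and 38.9% for GC. The member hairpins also resembled other microRNA hairpins, whether of members or not. Of the 81, 79 shared 22 or more consecutive bases with another hairpin, beside 953 of the 2121 others (44.9%). Contained whole in another hairpin were 30 of the 81, beside 223 of the 2121.

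That resemblance bears on every count below. A read that mapped to several places was given to no gene, so each count is a lower bound, and 43.9% of reads in replicate 1 and 45.9% in replicate 2 were of that kind. How many of them came from this family is not known from these files. Replicate 1 held 6713867 reads on the sense strand of microRNA genes and replicate 2 held 5901107. Levels are given as CPM, sense counts per 1000000 of those totals, and are not divided by length because a read spans about 1 mature microRNA. A gene with 0 counts could have had up to 3 counts, a level of 0.447 CPM in replicate 1 and 0.508 CPM in replicate 2. These floors and all intervals cover counting error only.

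Tissue markers were checked once. Of 11 neuronal genes listed, 7 had an average of at least 10 counts, and the 11 summed to 26787 CPM in the first library and 27842 CPM in the second, while Mir124a-2 was at 0. Of the 13 embryonic stem cell genes of the Mir290 and Mir302 groups found in the annotation, none had a mean of 10 counts, and their sum was 3.13 and 0.678 CPM.

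The reads that could be placed in the family were few and came from few of its genes. Because reads mapping to several places are missing, they do not give the family's full level or how it is spread over the members. Members summed to 7281 counts in replicate 1 and 4358 in replicate 2, levels of 1084 and 739 CPM with a mean of 911 ± 245 CPM (SD, n = 2). As a share of sense counts this was 0.108% in replicate 1 (exact 95% interval 0.106 to 0.111) and 0.0739% in replicate 2 (exact 95% interval 0.0717 to 0.0761). Counts were found for 9 members in both libraries, for 6 in 1 library and for 66 in neither. The same 9 members, 11.1% of the family, averaged at least 10 counts. Of the 2121 microRNA genes with other names, 457 did (21.5%). Together the 9 held 99.95% of the family's counts in each library.

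Members inside Sfmbt2 supplied nearly all of these placed counts. They summed to 7263 of 7281 counts in replicate 1 (99.8%, exact 95% interval 99.6 to 99.9) and to 4342 of 4358 in replicate 2 (99.6%, exact 95% interval 99.4 to 99.8). All 71 lie on the strand of Sfmbt2 within a single intron of 62472 bases, intron 10 of 1 transcript of 23 exons and intron 11 of another. They span chr2:10466663-10518279, 51.6 kb, with a median of 298.5 bases between the starts of neighbouring members. No antisense count fell on any member in either library.

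Among the 4 names, Mir467 and Mir669 genes held the placed counts. The 17 Mir467 genes summed to 5516 counts in replicate 1 and 3013 in replicate 2, from 3 genes. The 30 Mir669 genes summed to 1745 and 1327 counts, with 5 genes at an average of at least 10. The 28 Mir466 genes summed to 20 and 17 counts, of which Mir466q had 18 and 16. The 6 Mir297 genes had 0 counts in replicate 1 and 1 count in replicate 2. Counts of Mir467 thus exceeded those of Mir669 by 3.16 times in replicate 1 and 2.27 times in replicate 2.

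The counted genes stood on both sides of the middle of the array, and the middle, from the first to the last numbered Mir467a copy, held no counts. The middle is also where the hairpins are least distinct. Of its 33 members, 28 lay whole within another hairpin. No stretch of 22 bases found only once among microRNA hairpins was present in 29 of them, against 1 of 16 members before it and 2 of 22 after it. Position and loss of reads that map to several places cannot be told apart for those members. This middle stretch, chr2:10476346-10503355, is 27.0 kb long and repeats a unit in which Mir467a starts recur at a median of 2462 bases. All 33 members had 0 counts in both libraries. Before it, 16 members over 8.76 kb summed to 795 counts in replicate 1 and 497 in replicate 2. After it, 22 members over 14.7 kb summed to 6468 and 3845 counts. The stretches were drawn by gene name, but the choice was made with the counts in view, so it is a description without a test.

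**Figure D1:**
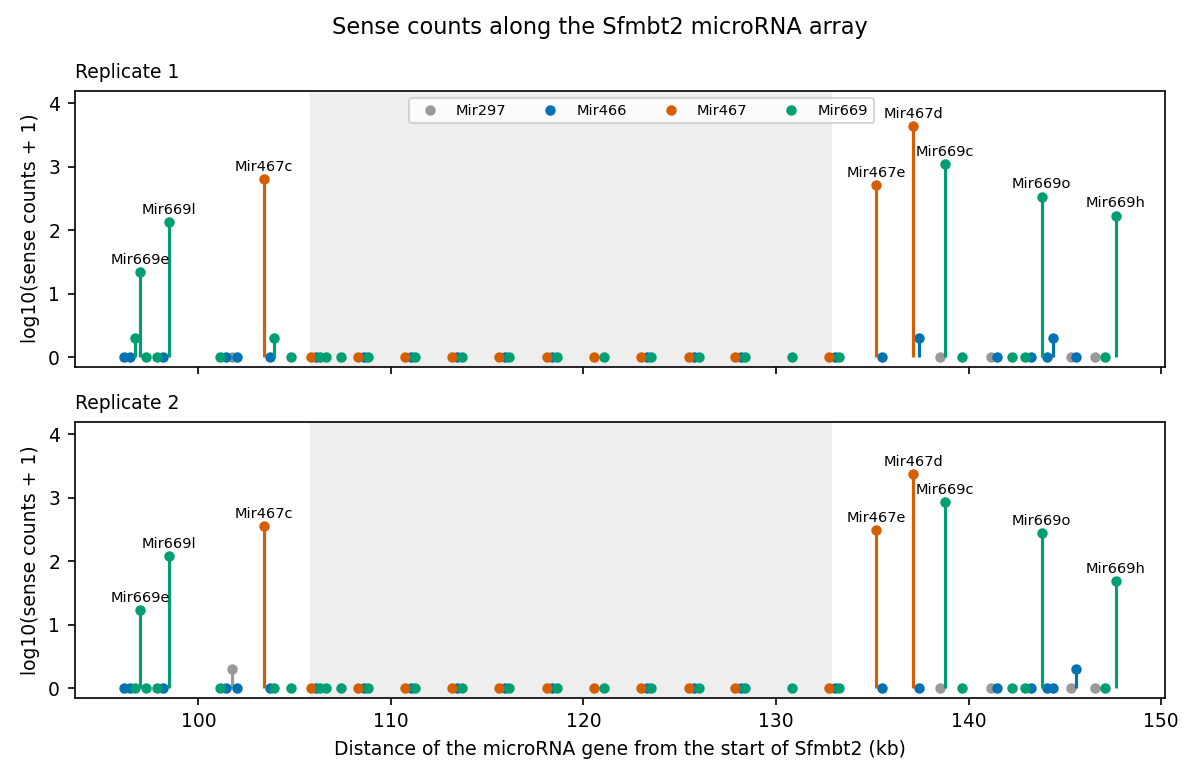
Sense counts of the 71 members inside Sfmbt2, as log10(count + 1), against distance from the start of Sfmbt2 in kb, with 1 panel for each library and colours for the 4 names; grey marks the stretch from the first to the last Mir467a copy. The 33 members in the grey stretch are at 0 in both panels, 29 of them with no 22-base stretch found only once among hairpins, and the 8 labelled genes have an average of at least 10 counts.

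The counted genes after the middle stretch were Mir467e, Mir467d, Mir669c, Mir669o and Mir669h. Mir467d (ENSMUSG00000077021.2, chr2:10507630-10507714) had the highest level of the family, with 4362 counts in replicate 1 and 2341 in replicate 2, or 650 and 397 CPM (523 ± 179 CPM, SD, n = 2). It ranked 117th by mean CPM among all 2202 genes and held 59.9% of the family's counts in replicate 1 and 53.7% in replicate 2. Mir467d therefore held most of the placed counts of the family in each library.

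Mir669c (ENSMUSG00000076118.1, chr2:10509296-10509404) followed with 1083 and 863 counts, or 161 and 146 CPM (154 ± 10.7 CPM, SD, n = 2). Mir467e (ENSMUSG00000076948.2, chr2:10505721-10505807) had 515 and 312 counts, or 76.7 and 52.9 CPM. Mir669o (ENSMUSG00000077086.1, chr2:10514300-10514395) had 337 and 280 counts, or 50.2 and 47.4 CPM. All 3 were far from the floor in both libraries. Mir669h (ENSMUSG00000080594.1, chr2:10518155-10518279), the last member of the array, had 169 counts in replicate 1 and 48 in replicate 2, or 25.2 and 8.13 CPM.

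The counted genes before the middle stretch were Mir669e, Mir669l and Mir467c. Mir467c (ENSMUSG00000077049.2, chr2:10473931-10474027) had 639 counts in replicate 1 and 360 in replicate 2, or 95.2 and 61.0 CPM. Mir669l (ENSMUSG00000076959.1, chr2:10468971-10469068) had 133 and 120 counts, or 19.8 and 20.3 CPM. Mir669e (ENSMUSG00000080653.1, chr2:10467495-10467613) had 21 and 16 counts, or 3.13 and 2.71 CPM. Mir467c was the highest of these in both libraries and Mir669e the lowest.

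Outside Sfmbt2, 1 of 10 members had counts. Mir466q (ENSMUSG00000092990.1, chr3:28419943-28420018), in an intron of Tnik on the same strand, had 18 counts in replicate 1 and 16 in replicate 2, or 2.68 and 2.71 CPM. Tnik encodes a protein kinase. The other 9, Mir297-1, Mir466f-4, Mir466i, Mir466j, Mir466k, Mir467f, Mir467g, Mir467h and Mir669n, had 0 counts in both libraries. Mir466i lies opposite Cdk13, Mir466k opposite Gm37240, Mir467f opposite Fxr2, Mir467g opposite Grk4 and Mir669n opposite Slc30a7, each in an intron. Mir297-1, Mir466f-4, Mir466j and Mir467h lie between genes.

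In order of mean CPM the 9 members ran Mir467d, Mir669c, Mir467c, Mir467e, Mir669o, Mir669l, Mir669h, Mir669e and Mir466q. The first 5 kept this order in each library. Mir669h stood above Mir669l in replicate 1 and below it in replicate 2. Mir467c and Mir467e, at 78.1 ± 24.2 and 64.8 ± 16.9 CPM (SD, n = 2), differed by less than either SD, as did Mir467e and Mir669o (48.8 ± 1.94 CPM) by less than the larger one. Mir669l and Mir669h, at 20.1 ± 0.372 and 16.7 ± 12.05 CPM, also differed by less than the larger SD, as did Mir669e and Mir466q, at 2.92 ± 0.295 and 2.70 ± 0.0215 CPM. These SDs measure the spread between libraries. They do not measure differences between genes within a library, where the first 5 kept their order.

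**Figure D2:**
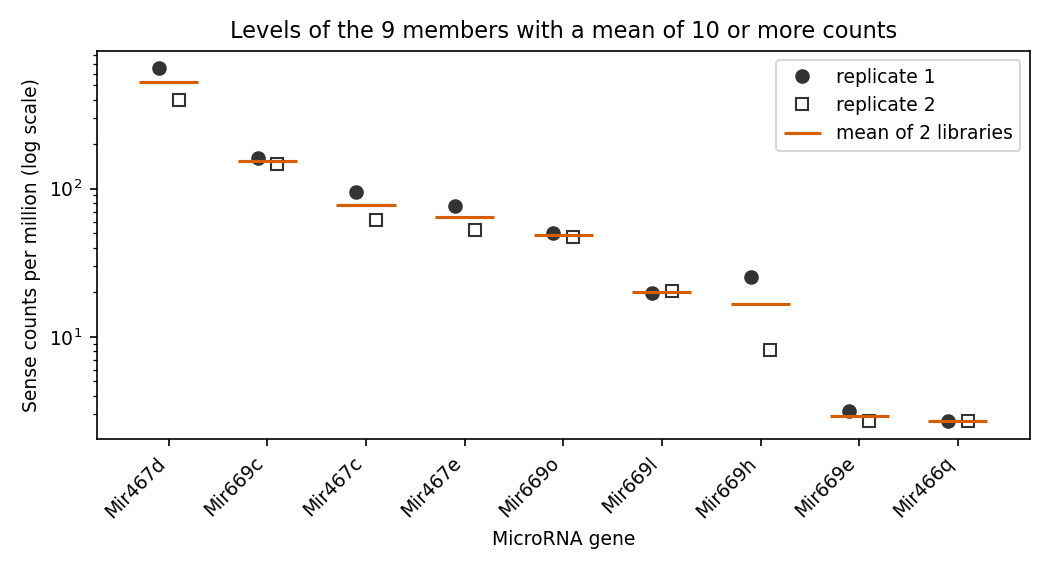
Level in CPM on a log scale for the 9 members with an average of at least 10 counts; points are the 2 libraries and bars their mean. Mir467d is at 650 and 397 CPM, and the libraries are farthest apart in proportion for Mir669h, at 25.2 and 8.13 CPM.

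Members next to counted genes had almost no counts, where next means the nearest member and microRNA genes with other names are passed over. Mir466, which starts 288 bases after Mir467d, had 1 count in replicate 1 and 0 in replicate 2. Mir669f, next to Mir669e, also had 1 and 0 counts. Of members not next to a counted one, Mir669a-3 and Mir466h had 1 and 0, and Mir297a-2 and Mir466l had 0 and 1. Mir466g, 295 bases after Mir669o, had 0 in both, as did Mir669b after Mir669e and Mir669i before Mir669h. Mir466b-1, Mir669a-2 and Mir669a-12, also next to counted members, had 0 in both. They had no stretch of 22 bases found only once among microRNA hairpins, so 0 is no measure of their level. The levels of these 6 genes with a single count cannot be told from 0 at this depth.

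Sequence shared with other hairpins was then set beside the counts. Each hairpin was read in windows of 22 bases, about the length of a mature microRNA. A window was called free if it occurred in no other microRNA hairpin on either strand and only once in its own. Hairpins that overlap in the genome were not set against each other. Of the 81 members, 32 had no free window, and all 32 had 0 counts in both libraries. They include 29 of the 33 members in the middle stretch. The remaining 4 of that stretch, Mir669g, Mir669j, Mir467b and Mir466b-2, had 38, 24, 11 and 22 free windows and also 0 counts.

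Of the 49 members with a free window, 9 had an average of at least 10 counts (18.4%), 6 had a single count in 1 library and 34 had none. The 34 had between 11 and 92 free windows. Among the other microRNA genes, an average of at least 10 was reached by 1 of 265 without a free window (0.377%) and by 456 of 1856 with one (24.6%). A free window among hairpins may still have copies elsewhere in the genome, which was not searched, and it need not cover the mature strand.

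Freedom from shared windows did not order the counts. Mir467d, the highest member, had 25 free windows of 64, the smallest share of the 9, and shared 60 consecutive bases with Gm25022. Mir669e had 95 free of 98 and only 21 and 16 counts. Mir669c had 73 of 88, Mir467c 48 of 76 and Mir467e 39 of 66. Mir466g, which shared no stretch of 18 bases and had all 59 windows free, and Mir669n, with all 33 free, had 0 counts in both libraries. These last 2 genes were singled out after their values were seen.

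**Figure D3:**
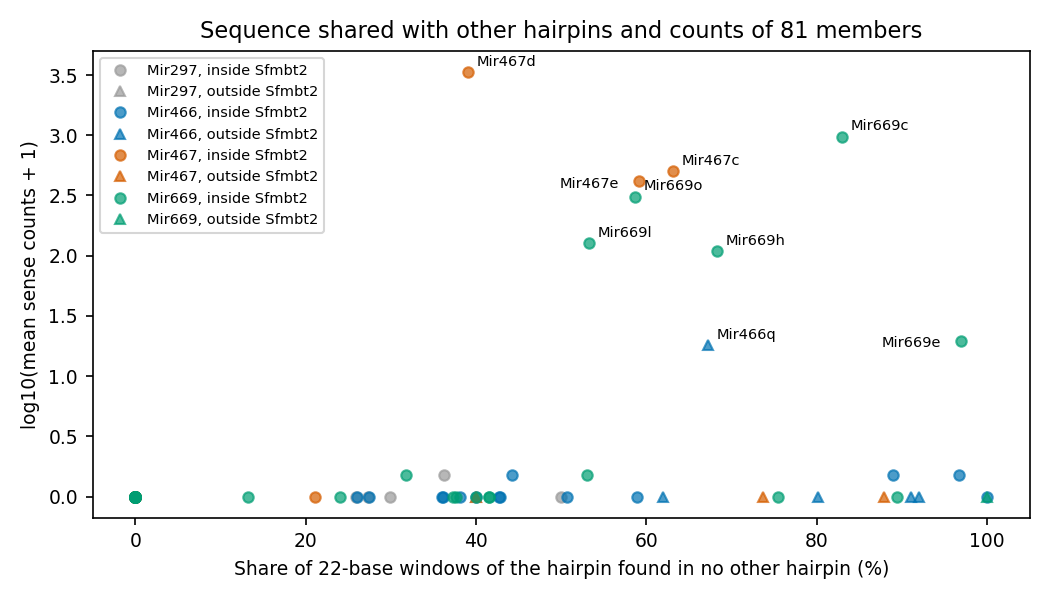
Share of 22-base windows of each hairpin that are free, found in no other microRNA hairpin and once in their own, in percent, against the mean sense count as log10(count + 1), for 81 members coloured by name, with circles inside and triangles outside Sfmbt2. The 32 members at 0% overlap at the lower left with 0 counts, and the 9 labelled genes lie between Mir467d and Mir669e on the horizontal axis.

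Sfmbt2 holds 48 more microRNA genes with other names, all given as Gm numbers in the annotation. They summed to 3 counts in replicate 1 and 4 in replicate 2, and none had a mean of 10. Gm25263 had 2 and 1 counts, and 22 of the 48 had no free window. The array between Mir379 and Mir410 at the imprinted Dlk1-Dio3 locus served as a comparison, being another large group of clustered microRNA genes. There, 33 of 43 genes had an average of at least 10 counts (76.7%), and none lacked a free window. Together the 43 came to 46814 CPM in the first library and 34755 CPM in the second. No test was made between these arrays.

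The 2 libraries were compared gene by gene. Of 9 tested members, 4 were lower in replicate 2, Mir467d, Mir467c, Mir467e and Mir669h, and none was higher. The test was a 2-sided Fisher exact test of each gene's counts against all other sense counts, and p-values were adjusted by the Benjamini-Hochberg method over all 466 genes that averaged at least 10 counts. A gene was called only if its ratio had one sign under 3 scalings. Among all 466 genes 35.6% were called lower, 84 genes were called higher, and 57.5% passed the test in either direction, so 4 of 9 (44.4%) is near the background. The test compares 2 libraries and not conditions, and covers counting error only. It uses the sense totals, so its p-values go with ratios under totals. The ratios and SEs below are under TMM unless said otherwise.

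Mir467d, with 4362 and 2341 counts, had a log2 ratio of replicate 2 over replicate 1 of -0.55 under scaling by trimmed mean of M values (TMM, counting SE 0.04). Under totals, the scaling of the test, the ratio was -0.71, with an adjusted p of 4.27e-85 by the Fisher exact test. Mir467c fell by 0.48 (SE 0.10, adjusted p 2.42e-11) and Mir467e fell by 0.37 (SE 0.10, adjusted p 4.32e-07), both on the log2 scale under TMM, with p by the same exact test. Their log2 ratios under totals were -0.64 and -0.54. The 3 counted Mir467 genes were therefore all lower in replicate 2, by 1.46, 1.39 and 1.30 times under TMM. They stand on both sides of the middle stretch.

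Mir669h changed most, from 169 to 48 counts, a log2 ratio of -1.46 under TMM (SE 0.23), or 2.75 times lower. Under totals the ratio was -1.62, with an exact adjusted p of 2.22e-13. The other 4 Mir669 genes did not pass. Their log2 ratios were 0.02 (SE 0.07) for Mir669c, 0.08 (SE 0.12) for Mir669o, 0.20 (SE 0.18) for Mir669l and -0.03 (SE 0.47) for Mir669e. Under totals, the scaling of the test, the log2 ratio of Mir669c was -0.14. Its adjusted p was 0.056 by the exact test. It ranged from 0.043 to 0.091 over the other filters and the count without strand, and where it passed, its sign depended on the scaling. Mir466q had a ratio of 0.18 (SE 0.49). The 95% counting intervals of Mir669e (-0.96 to 0.89) and Mir466q (-0.77 to 1.14) are wide enough to hold a ratio as large as that of Mir467d.

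**Figure D4:**
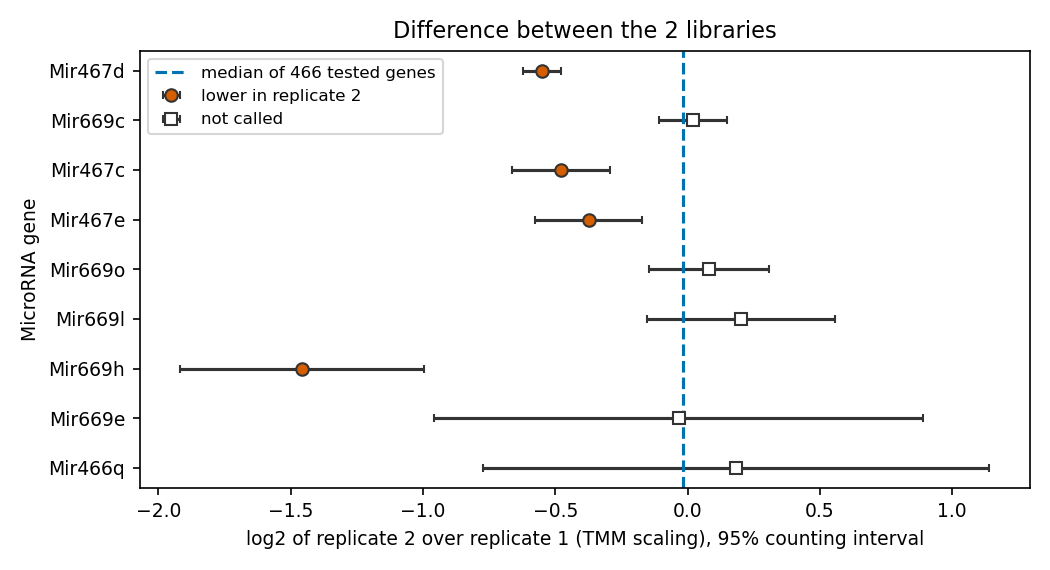
Log2 ratio of replicate 2 over replicate 1 under TMM scaling for the 9 tested members, with 95% counting intervals; filled circles were called lower, open squares were not called, and the dashed line is the median of 466 tested genes at -0.02. The intervals of Mir467d, Mir467c, Mir467e and Mir669h lie wholly below 0.

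Over the 9 members the median log2 ratio was -0.03 under TMM, beside -0.02 over all 466 genes. The middle member was Mir669e, with 21 and 16 counts. With a mean of 50 or more counts the middle of 7 members was Mir467e at -0.37, beside -0.04 over 328 genes, and with no minimum the middle of 15 was again Mir467e, beside 0.01 over 787 genes. The median over the members is therefore not a steady description of them. Scaling by totals moved the median of all genes to -0.18 and that of the members to -0.20, a shift common to both. Ratios between 2 members within a library need no scaling. Mir467d had 4.03 times the counts of Mir669c in replicate 1 (exact 95% interval 3.77 to 4.31) and 2.71 times in replicate 2 (exact 95% interval 2.51 to 2.94). For Mir467c over Mir669c the values were 0.590 (0.534 to 0.651) and 0.417 (0.368 to 0.472), and for Mir467e over Mir669c 0.476 (0.427 to 0.529) and 0.362 (0.317 to 0.412). For Mir669h over Mir669c they were 0.156 (0.132 to 0.184) and 0.0556 (0.0407 to 0.0744). These 4 genes are those called lower above, and Mir669c was not called, so their separate intervals restate those calls without a scaling. For the other 4 members the intervals overlapped. Mir669o over Mir669c was 0.311 (0.275 to 0.352) and 0.324 (0.283 to 0.372), and Mir669l over Mir669c was 0.123 (0.102 to 0.147) and 0.139 (0.114 to 0.168). Mir669e over Mir669c was 0.0194 and 0.0185, and Mir466q over Mir669c was 0.0166 and 0.0185. Mir669c was chosen as the divisor after the counts were seen.

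In bulk tissue, fewer cells of a type and less RNA per cell cannot be told apart. Markers of other cells also differed between the libraries. The 3 oligodendrocyte genes, all above a mean of 10, summed to 7078 CPM in replicate 1 and 3193 CPM in replicate 2. The endothelial genes, of which Mir126b was at 0 in both, summed to 6191 and 2897 CPM. The 3 erythrocyte genes summed to 73.1 and 32.7 CPM, with 2 of them at an average of at least 10, and the 4 leukocyte genes found summed to 2018 and 2234 CPM. Mir204 of the choroid plexus was at 1532 and 1653 CPM. Their part in the lower Mir467 counts was not tested.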

How the data were processed

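MicroRNA libraries of RNA below 30 nt were made from mouse hippocampus, 2 in all. Per the file notes, the deposited values are raw read counts for each microRNA gene on mm10 with GENCODE M21. The aligner and the counting program were not given in the sources used here. The table of a library has 3 unheaded count columns, identified from their values as without strand, sense and antisense, and 4 read classes, which were left out of library sizes. Sense counts were used.

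All 2202 gene identifiers matched GENCODE M21, whose hairpin transcripts gave shared stretches. Ratios are log2 after adding 0.5 counts, scaled by edgeR 4.0.16 (TMM), totals or DESeq2 1.42.0 size factors. The Fisher exact test (SciPy 1.17.1) used a minimum mean of 10 counts and a threshold of 0.05. It was tried on simulated counts that held counting error and set changes only. That trial does not cover spread between libraries beyond counting error. Intervals are Clopper-Pearson at 95%. Named genes were all members with a mean of 10 or more counts, the next by mean, and members outside Sfmbt2 with counts in both libraries. The members and lists were chosen with earlier results of these data known. A planned search of mature arms in the genome was not run, since no genome was used here; free hairpin windows replaced it, chosen after seeing the data. Genes with near-identical copies have uncertain counts.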

Additional observations from a re-analysis of the deposited data

How the results depend on the processing

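Of 37 alternative settings over 7 results, 31 left the value within the replicate or counting spread, or a count within 1.5 times. The 31 include settings whose outcome was fixed. Leaving out a replicate shifts a mean of 2 libraries by less than their SD, so the summed level and the shares had to stay within it. Counts without strand equal the sense counts of every member, so the numbers of counted members and the share inside Sfmbt2 could not move. The summed level of 911 CPM became 383 when scaled by all reads, whose larger total sets the change, and 0 without members sharing 18 or more bases, which removes every counted member, as it does for the count of members in both libraries (0). The share inside Sfmbt2 has no value under that setting. The median log2 ratio of -0.03 became -0.20 under totals, a shift that all tested genes shared. It became -0.37 both with no minimum count (15 members) and at a mean of 50 or more (7 members), because the middle member changed from Mir669e to Mir467e. Leaving out a replicate gave summed levels of 738.51 to 1084.5 CPM, shares inside Sfmbt2 of 99.6% to 99.8%, and 9 members with 10 or more counts each time. The 4 members called lower were also called lower under every minimum count and strand setting run. Having one sign under all scalings was part of the call, and the exact test used totals only. The settings that took the sign under each scaling alone could therefore not change these calls, and they are no check of them. No paired analysis was possible because the libraries form 1 group. Planned settings on mature arms unique in the genome were not run. Depth limits the ratios of Mir669e and Mir466q and the levels of the 6 members with a single count. For the 32 members at 0 with no free window, reads of 22 bases would match more than 1 place among the hairpins. A count of 0 is therefore no measure of their level. For the other 34 members at 0, a low or absent level, limited depth and lost reads cannot be told apart.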

Other observations

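Predicted folding energies of the hairpins overlapped between the 9 members with a mean of 10 or more counts and the other 72. RNAfold 2.7.2 gave a median minimum free energy of -39.7 kcal/mol for the 9 members with a mean of 10 or more counts, and of -37.1 kcal/mol for the other 72, which ranged from -53.9 to -17.0. The energies were not scaled by hairpin length, which had a median of 97 bases in the 9 and 87.5 in the other 72. The 9 ranged from -45.5 to -28.9 kcal/mol, with Mir467d, Mir467e and Mir669h at -32.9 kcal/mol each. All 9 had higher energies than Mir466n, which had 0 counts and the lowest energy of the family. The hairpins of Mir467d, Mir669h and Mir466n have 85, 125 and 94 bases. The hairpin of Mir466q shared 18 or more bases with 120 other hairpins and still had counts in both libraries.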
